A study of Ovis aries with 6 samples.

Results

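The miR-34 and miR-449 miRNAs were examined in 6 small RNA libraries of sheep longissimus, the long back muscle. Of these, 3 came from Qianhua Mutton Merino (QHMM), a mutton breed, and 3 from the breed Small Tail Han (STH). The labels of both breeds give natural conditions and name no agent or allele, and no source used here states age or sex. Members were chosen by name: miR-34a, b and c and miR-449a, b and c, in each arm listed under a sheep, rat, mouse or human name. This gave 12 of 10430 names, held by 22 of 11161 rows of the count table. Where several rows carried a name, the row with the highest total over the 6 libraries was used. The family was proposed with the breed differences of miR-449a-5p, miR-34b-5p and miR-34c-5p already known. These are therefore given as a description, with no p-value printed. Their calls in the fit across all names are listed, but nothing is read from them.

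In mammals these miRNAs come from separate loci. miR-34a has a gene of its own that the tumour suppressor p53 activates, miR-34b and miR-34c are p53-responsive too and are cut from a common transcript, and the miR-449 miRNAs lie in an intron of the cell cycle gene CDC20B in human and mouse. The 5p arms share a seed, the stretch near the 5′ end that pairs with target mRNAs, and repress cell cycle genes. In mouse, miR-34b/c and miR-449 are abundant in multiciliated epithelia and testis and are needed for motile cilia, while miR-34a is made in many tissues. None of them is a miRNA particular to muscle fibres.

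The 5p sequences are shown first because they explain why these names are read as a family. They are the DNA letters of the rows used, read from the 5′ end, with the seed (positions 2 to 8) in capitals.
miR-34a-5p: tGGCAGTGtcttagctggttg
miR-34b-5p: aGGCAGTGtaattagctgattg
miR-34c-5p: aGGCAGTGtagttagctgattg
miR-449a-5p: tGGCAGTGtattgttagctgg
miR-449b-5p: aGGCAGTGtattgttagctgg
miR-449c-5p: aGGCAGTGcattgctagctgg
All 6 carried the seed GGCAGTG. Counted from the 5′ end, miR-34c-5p differed from miR-34b-5p by A11G alone, and miR-449b-5p from miR-449a-5p by T1A alone. miR-449c-5p differed from miR-449a-5p by T1A, T9C and T14C. How reads that match several rows were counted is not given, so names that differ at 1 base may share reads. Of all rows, 12 had this seed at positions 2 to 8, with 4771 counts in total, and 99.4% of these counts stood under family names. The only other such row was a predicted sequence on chromosome 2 with 29 counts.

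The 3p arms, which come from the other side of each hairpin, fell into different seeds. They are shown for the precursors with at least 10 counts on each arm over all libraries.
miR-34a-3p: aATCAGCAagtatactgccct
miR-34b-3p: aATCACTAgttccactgccat
miR-34c-3p: aATCACTAaccacacggccag
miR-449a-3p: cAGCTAACatgcaactgctat
miR-34b-3p and miR-34c-3p shared the seed ATCACTA, and the others had seeds of their own. The predicted sheep loci were numbered on chromosome 12 for miR-34a, chromosome 15 for miR-34b and miR-34c, and chromosome 16 for miR-449a and miR-449b (build Oar_v3.1, with no positions in the table). miR-449b-3p and both miR-449c names stood only under a human, rat or mouse name, with no sheep locus.

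Some names had a second predicted row. For miR-34a-5p this was ccagctaagacactgcca, shown because it is the exact reverse complement of positions 1 to 18 of the row used. Its libraries held 509, 162 and 255 reads for QHMM and 351, 114 and 217 for STH. The row used held 543, 190 and 221 for QHMM and 372, 112 and 206 for STH. The totals, 1608 and 1644, were close, and the ratio per library ran from 0.853 to 1.15. For miR-34a-3p the reverse complement row, ggcagtatacttgctgat, had the higher total (66 against 58 for the sequence printed above) and was the row used. Values of miR-34a-3p therefore rest on a sequence antisense to the mature arm. miR-449a-5p stood at 2 loci of chromosome 16 with the identical sequence, with totals of 177 and 140, and the miR-449a-3p row lay at the locus with the lower total.

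**Figure D1:**
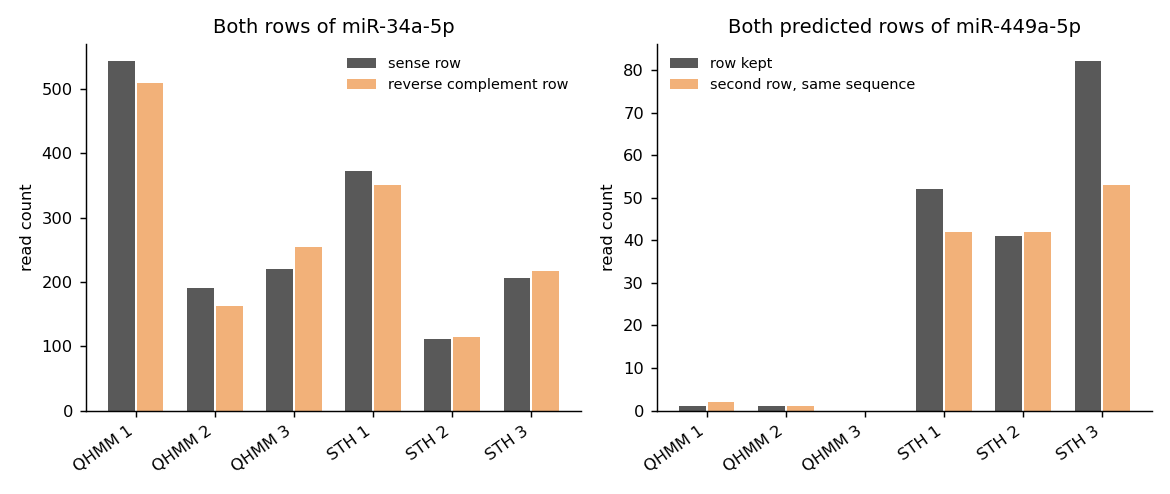
Read counts per library of the rows that share a name, for miR-34a-5p (left) and miR-449a-5p (right), with QHMM libraries before STH libraries. The sense and reverse complement rows of miR-34a-5p followed each other in every library, with totals of 1644 and 1608, and both rows of miR-449a-5p had 0 to 2 counts per QHMM library.

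The libraries held 8062231 to 10276427 counts in QHMM and 8681817 to 11282332 in STH, and 5572865 to 7546762 and 6172849 to 7930202 with 1 row per name, the base of the CPM (read counts scaled by the library total) given here. The muscle label was checked against miRNAs of muscle fibres, whose 5 matched names summed to 517816 to 546371 CPM in QHMM and 450124 to 536352 CPM in STH. The most abundant were the rows named miR-1b (366295 CPM in QHMM and 365035 CPM in STH) and miR-133 (131322 and 95381 CPM). Of the 5 names, miR-208b-3p alone passed in edgeR, with a log2 fold change of 1.27 (3 had an unadjusted p under 0.05, and 2 passed in DESeq2). Of all 1274 names tested, 28 passed in edgeR and 49 in DESeq2. The share of all names at the unadjusted cutoff is not given here, so nothing is read from that count. Whether each library is a different animal is not stated, so that p-values cover the spread among libraries, which may be technical. In such bulk tissue, fewer cells of a type and less RNA per cell cannot be told apart.

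The family took a small part of the miRNA of both breeds, and its make-up differed between them. In QHMM muscle miR-34a held 49.3% to 75.6% of the family's counts per library and the miR-34b/c cluster 24.2% to 50.3%. In QHMM replicate 3 the miR-34b/c cluster was slightly the larger (50.3% against 49.3%). In STH muscle the miR-34b/c cluster held 61.8% to 82.2%, with miR-449a added. The family summed to 98.7, 59.8 and 64.1 CPM in QHMM replicates 1, 2 and 3, and to 163, 152 and 178 CPM in STH replicates 1, 2 and 3. Every STH library lay above every QHMM library. The means were 74.2 ± 21.4 CPM in QHMM and 164 ± 13.4 CPM in STH (SD, n = 3 each).

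By cluster, the miR-34a locus summed to 47.1 ± 23.9 CPM in QHMM and 32.8 ± 17.5 CPM in STH (SD, n = 3 each). The miR-34b/c cluster summed to 26.7 ± 4.84 CPM in QHMM and 120 ± 17.6 CPM in STH. The miR-449 cluster summed to 0.417 ± 0.260 CPM in QHMM and 11.3 ± 3.52 CPM in STH. Only the sums of the miR-34a locus overlapped between the breeds. As a share of the family, miR-34a took 75.6%, 58.9% and 49.3% in QHMM libraries and 32.1%, 12.2% and 15.5% in STH libraries. The miR-449 cluster took 0.268% to 1.20% in QHMM and 5.66% to 8.56% in STH. These sums and shares leave out the second row of miR-449a-5p, which has the identical sequence and 42, 42 and 53 counts in STH libraries. The values of the miR-449 cluster therefore depend on the row used.

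**Figure D2:**
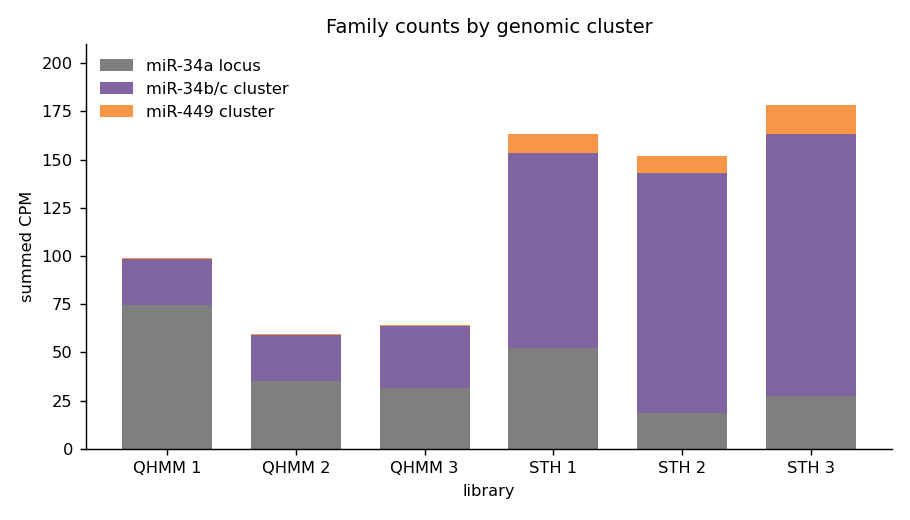
Summed CPM of the family in each library, stacked by locus (grey, miR-34a; purple, miR-34b/c; orange, miR-449), with QHMM libraries before STH libraries. The purple part was 26.7 CPM on average in QHMM and 120 CPM in STH, while the grey part overlapped between the breeds.

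miR-34a-5p, the member with a gene of its own, had 72.0, 34.1 and 29.7 CPM in QHMM and 50.8, 18.1 and 26.0 CPM in STH. Replicate 1 was the highest library in each breed, and the breeds overlapped. Its log2 fold change, QHMM over STH, was 0.49 (standard error 0.40), which did not pass in the edgeR fit across 1274 names (adjusted p = 0.622). miR-34a-3p, the antisense row described above, was read 20, 6 and 14 times in QHMM libraries and 11, 2 and 13 times in STH libraries. Here too the breeds overlapped. The fitted value was 0.66 on the log2 scale, with an edgeR adjusted p of 0.621 and a standard error of 0.52.

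miR-34b-5p had 15.2, 12.7 and 17.9 CPM in QHMM and 58.3, 74.4 and 81.7 CPM in STH. The lowest STH library was far above the highest QHMM library. The log2 fold change was -2.24 (standard error 0.30). miR-34c-5p, its cluster partner, had 4.90, 6.82 and 8.60 CPM in QHMM and 33.2, 37.1 and 35.9 CPM in STH, again without overlap. Its log2 fold change was -2.38 (standard error 0.34).

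miR-34b-3p, the other arm of the miR-34b hairpin, moved the same way. Its read count was 26, 23 and 39 for QHMM libraries and 64, 76 and 141 for STH libraries, which is 4.27 ± 0.906 CPM in QHMM and 12.9 ± 4.55 CPM in STH (SD, n = 3 each). On the log2 scale the difference was -1.60 with a standard error of 0.38, and edgeR gave it an adjusted p of 0.0471. The difference of miR-34b-5p, from the same hairpin, was known beforehand, so this call is no separate result. The fold ran from -1.84 to -1.33 over the alternatives, but the call was lost without QHMM replicate 1, 2 or 3 (adjusted p = 0.0934, 0.116 and 0.115) and without STH replicate 2 or 3 (0.125 and 0.184), and also with at least 10 counts in every library (0.0634) or known names only (0.0970). miR-34c-3p, at 2, 1 and 4 reads in QHMM libraries and 5, 5 and 0 in STH libraries, did not pass the filter on low counts. The ratio of its summed shares, QHMM over STH, was 0.729 with an exact 95% counting interval of 0.236 to 2.12, so that no breed difference was detectable at this depth.

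miR-449a-5p was near the limit of detection in QHMM, with 1, 1 and 0 reads, and reached 52, 41 and 82 reads in STH. This is 0.104 ± 0.0931 CPM in QHMM and 8.03 ± 2.02 CPM in STH (SD, n = 3 each). The ratio of summed shares, QHMM over STH, was 0.0119 (exact 95% counting interval 0.00143 to 0.0437). The fitted log2 fold change, -6.14, depends on the prior count at such low values. Its standard error of 0.62, taken from the fold change and the test statistic, does too. At so few QHMM reads it understates the uncertainty, and the counting interval above is wider. The second row of the same sequence held 2, 1 and 0 reads in QHMM libraries and 42, 42 and 53 in STH libraries.

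The other arm, miR-449a-3p, was at 0 in every QHMM library and had 16, 6 and 28 reads in STH libraries. Against a floor of 3 counts over all QHMM libraries, its share was at least 16-fold lower in QHMM. It did not pass the filter on low counts and has no test in the fit across names. miR-449b-5p held 1, 1 and 2 reads in QHMM libraries and 2, 4 and 6 in STH libraries (ratio 0.347, exact 95% counting interval 0.0816 to 1.15). Its lowest STH library, at 0.273 CPM, lay just above the highest QHMM library at 0.269 CPM. miR-449c-5p held 0, 1 and 0 reads in QHMM libraries and 3, 2 and 4 in STH libraries (ratio 0.116, interval 0.00264 to 0.835). miR-449c-3p had 1 count, in QHMM, and miR-449b-3p had 1 count, in STH. Intervals cover counting error only, and 3 counts correspond to 0.398 to 0.538 CPM in QHMM libraries and 0.378 to 0.486 CPM in STH libraries.

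**Figure D3:**
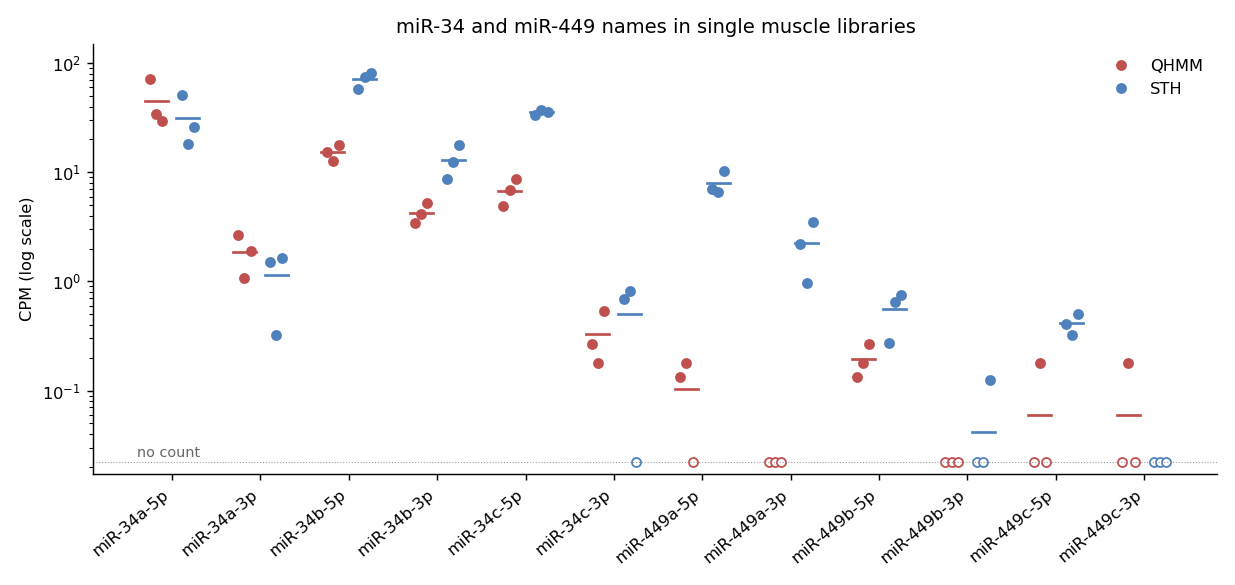
CPM (log scale) of each family name in single libraries, with QHMM (red) to the left of STH (blue). Filled points are libraries, lines are means of 3 libraries, and open points at the dotted line are libraries with no count. miR-34a-5p overlapped between the breeds, while miR-34b-5p ran from 12.7 to 17.9 CPM in QHMM and from 58.3 to 81.7 CPM in STH.

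The order of the members followed these differences. In QHMM the 3 highest were miR-34a-5p at 45.2 ± 23.2 CPM, miR-34b-5p at 15.3 ± 2.56 CPM and miR-34c-5p at 6.77 ± 1.85 CPM (SD, n = 3 each), with no overlap between neighbours. miR-34c-5p and miR-34b-3p, the next in order, overlapped in range. In STH the 3 highest were miR-34b-5p at 71.5 ± 12 CPM, miR-34c-5p at 35.4 ± 2.01 CPM and miR-34a-5p at 31.6 ± 17.1 CPM. Here miR-34c-5p and miR-34a-5p overlapped. Over all 6 libraries the most abundant member, miR-34b-5p, held place 296 of 10430 names by mean CPM, and miR-449a-5p place 796. The order is one of counted reads per row used. It leaves out the second row of miR-449a-5p with the identical sequence, so the place of that name depends on the row used.

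Of the 12 names, 6 passed the filter on low counts and 4 of these were past an adjusted p of 0.05 in the edgeR fit, all lower in QHMM: miR-34b-5p, miR-34b-3p, miR-34c-5p and miR-449a-5p. Over all 1274 names tested, 28 passed (2.2%), of which 4 were higher in QHMM (0.314%) and 24 were higher in STH (1.88%). Of the 6 tested, the same 4 did not overlap between the breeds, as was true of 17.2% of all names tested (8.48% higher in QHMM and 8.71% higher in STH). miR-449a-5p passed the filter only through STH. Since the family was proposed with this contrast known, nothing is read from these counts. The median log2 fold change of the 6 members tested was -1.92 and that of all names tested 0.031. Both miR-34a names lay above 0 and the 4 others below.

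**Figure D4:**
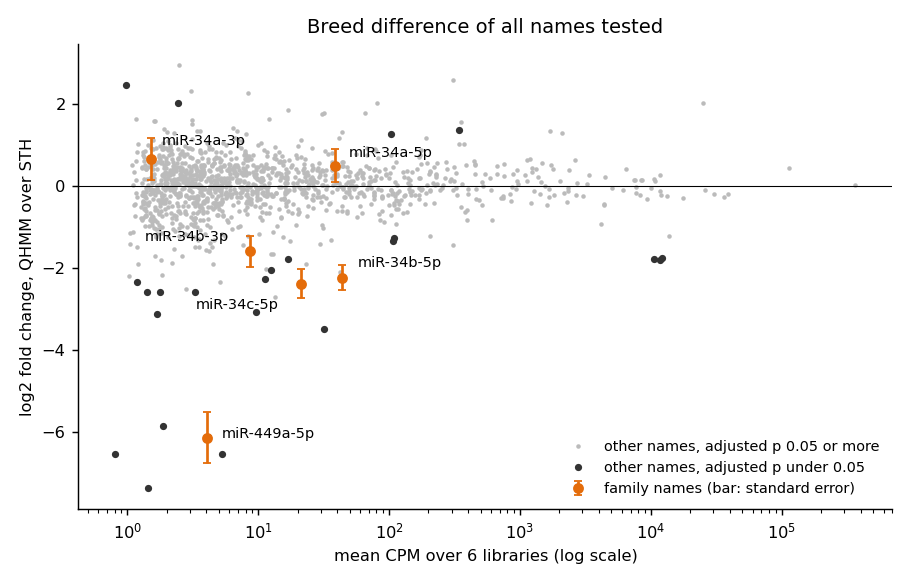
Log2 fold change, QHMM over STH, against mean CPM over 6 libraries (log scale) for the 1274 names tested. Family names are orange with standard errors, which understate the uncertainty of miR-449a-5p at its low QHMM counts. Black points are other names past an adjusted p of 0.05. miR-34a-5p (0.49) and miR-34a-3p (0.66) lay above 0, whereas miR-34b-5p (-2.24), miR-34c-5p (-2.38), miR-34b-3p (-1.60) and miR-449a-5p (-6.14) lay below.

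The miR-34a locus and the miR-34b/c cluster were also set against each other within each library, which removes differences in depth. The ratio of summed miR-34b-5p and miR-34c-5p counts to miR-34a-5p counts was 0.280, 0.574 and 0.891 in QHMM and 1.80, 6.14 and 4.53 in STH. miR-34a-5p thus had more counts than the pair in every QHMM library and fewer in every STH library. On the log2 scale (0.5 added to each count) the means were -0.93 ± 0.84 in QHMM and 1.88 ± 0.92 in STH (SD, n = 3 each). This ratio rests on the known contrast and was not tested.

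Within the cluster, the balance of its members overlapped between the breeds. The ratio of miR-34b-5p to miR-34c-5p counts was 3.11, 1.87 and 2.08 in QHMM and 1.76, 2.00 and 2.27 in STH. The log2 ratios were 1.19 ± 0.38 in QHMM and 0.999 ± 0.186 in STH (SD, n = 3 each), and their difference, 0.19, was within the spread of the QHMM libraries. Both members differed by breed when the family was proposed, so the ratio is a description.

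The arms of each hairpin were set against each other next. The 5p counts of miR-34b, miR-34c and miR-449a enter these ratios and were known to be lower in QHMM, so the ratios of these precursors are a description with no test. miR-34b was the precursor with the largest 3p share among the miR-34 precursors. Its 5p to 3p ratio was 4.42, 3.09 and 3.41 in QHMM and 6.67, 6.04 and 4.60 in STH, without overlap. The log2 ratios, with 0.5 added to each count, were 1.83 ± 0.27 in QHMM and 2.50 ± 0.28 in STH (SD, n = 3 each), a difference of -0.68. In pooled counts the 5p arm of miR-34b held 78.4% (exact 95% interval 74.1% to 82.3%) in QHMM and 84.5% (82.8% to 86.2%) in STH.

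For miR-34c the log2 arm ratio was 4.14 ± 0.47 in QHMM and 6.67 ± 2.15 in STH, also without overlap (SD, n = 3 each). It rests on 7 counts of miR-34c-3p in QHMM and 10 in STH, with none in STH replicate 3. Without that library the difference in log2 ratio, -2.53 over all libraries, was -1.28. For miR-34a, whose 3p value is the antisense row, the ratio was 4.51 ± 0.51 in QHMM and 4.81 ± 0.80 in STH (SD), with an exact two-sided permutation p of 0.50 (n = 3 each). A test of 3 against 3 allows no p below 0.10. For miR-449a only STH had counts on both arms, and the rows used for the arms lay at different predicted loci. In STH the 5p arm had 175 and the 3p arm 50 counts, a 5p share of 77.8% (exact 95% interval 71.8% to 83.0%). The 5p row at the locus of the 3p row had 42, 42 and 53 counts in STH libraries, so this share depends on the row used. QHMM had 2 counts of the 5p arm and none of the 3p arm. The log2 ratios of miR-449a in QHMM are therefore set by the 0.5 added to each count and are not compared.

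**Figure D5:**
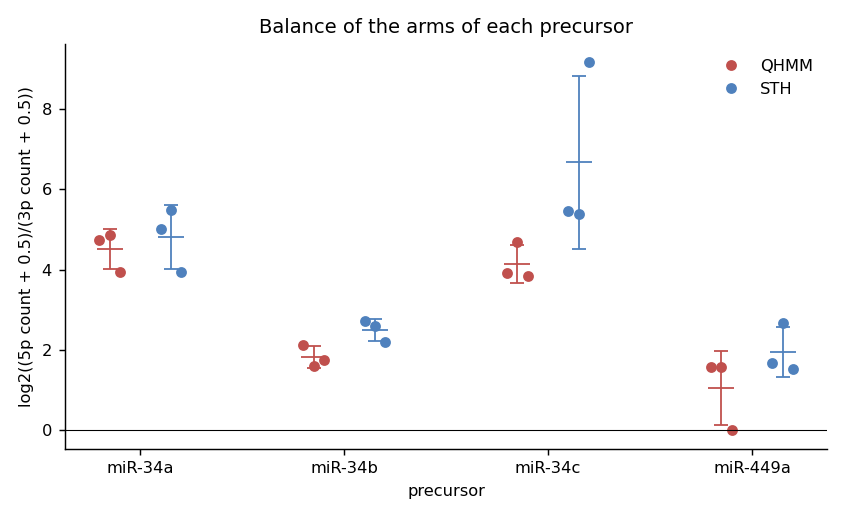
Log2 ratio of 5p to 3p counts (0.5 added to each count) for the precursors with at least 10 counts on each arm over all libraries, with QHMM (red) to the left of STH (blue). Points are libraries, with the mean and SD over 3 libraries as bars. All 3 QHMM libraries lay below all 3 STH libraries for miR-34b (1.83 against 2.50 on average) and for miR-34c, whose highest STH point has no 3p count, while miR-34a overlapped. The QHMM points of miR-449a have no 3p count. For miR-34a the 3p count is that of the antisense row.

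Other miRNAs with a like profile over the 6 libraries were named among 481 known names outside the family, by the correlation of log2 CPM. It is a description over 6 libraries of 2 breeds, in which both names are read from the same libraries. For miR-34a-5p the 5 nearest were miR-379-5p (r = 0.987), miR-433-3p (0.985), miR-31a-5p (0.949), miR-323c (0.946) and miR-150 (0.935). These include miR-379 and miR-433, which lie in the imprinted DLK1-DIO3 region. miR-379-5p had 319, 211 and 207 CPM in QHMM and 260, 158 and 206 CPM in STH, so that replicate 1 was highest in both breeds, as for miR-34a-5p.

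For miR-449a-5p the nearest were miR-3607-3p (r = 0.992), miR-1264-5p (0.977), miR-139-3p (0.970), miR-202-5p (0.964) and miR-1928 (0.956). For the sum of miR-34b-5p and miR-34c-5p the first 4 were the same, at 0.988, 0.970, 0.968 and 0.952, and the fifth was miR-1273c (0.920). These names were picked for a profile that differs by breed, so their own breed differences are no separate result. miR-1264-5p, from an intron of the serotonin receptor gene HTR2C, was read 1, 0 and 0 times in QHMM and 14, 20 and 48 times in STH. miR-202-5p, a miRNA of gonads, was read 1, 0 and 1 times in QHMM and 71, 21 and 145 times in STH.

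Lists of other cell types and of related miRNAs were set beside the family. The 11 epithelium markers, such as the miR-200 family and miR-205, summed to 33.8, 4.49 and 16.1 CPM in QHMM and 32.0, 6.80 and 10.2 CPM in STH. Replicate 1 was highest in each breed and the sums overlapped between the breeds. Single names of the list leaned either way, and the part of epithelial cells in the family's difference was not tested. All 11 had counts, and the most abundant was miR-200a at 7.23 CPM in QHMM and 6.44 CPM in STH, followed by miR-205 at 2.55 and 0.753 CPM. Only miR-200a was tested, and edgeR gave a log2 fold change of 0.12 (adjusted p = 0.963). The 8 matched names of 14 gonad and germ cell miRNAs summed to 0 to 0.663 CPM in QHMM and 4.21 to 19.7 CPM in STH. Most of the STH sum was miR-202-5p, which passed the filter on low counts only through STH and was past the threshold. miR-202-3p followed with 0 counts in QHMM and 4, 2 and 9 in STH, and the others had at most 4 counts over all libraries. The 9 HTR2C intron miRNAs summed to 0.265 to 0.897 CPM in QHMM and 2.60 to 6.68 CPM in STH. Most of this STH sum was miR-1264-5p, which also passed the filter only through STH and was past the threshold. No other name of either list was tested, and nothing is read from these calls. miR-1298-3p followed with 0, 1 and 1 reads in QHMM libraries and 3, 1 and 0 in STH libraries. The part of gonad or HTR2C-expressing cells in the family's difference was not tested.

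The 4 neuron miRNAs summed to 3.23 to 5.70 CPM in QHMM and 3.89 to 7.82 CPM in STH, led by miR-9a-5p and miR-124-3p, and its 1 name tested, miR-9a-5p, had a log2 fold change of -0.10 (edgeR adjusted p = 0.923). The red blood cell list summed to 18967 to 84306 CPM in QHMM and 7299 to 13838 CPM in STH, led by miR-451-5p and miR-144-3p. None of its 4 names passed in edgeR (1 had an unadjusted p under 0.05, and 1 passed in DESeq2, beside 49 of all 1274 names). QHMM replicate 3 held its highest sum. The part of blood in the family's values was not tested. Of 8 p53-responsive miRNAs outside the family, led by miR-145-5p and miR-143, 7 were tested and none passed in edgeR (2 had an unadjusted p under 0.05, and none passed in DESeq2). Their median log2 fold change was 0.22, beside 0.031 over all names. Of all 1274 names, 28 passed in edgeR and 49 in DESeq2. The share of all names at the unadjusted cutoff is not given here, so nothing is read from the unadjusted counts of these lists.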

How the data were processed

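Muscle small RNA, size-selected on a gel, was read single-end with Ion chemistry. The table that the authors deposited gives whole read counts, not normalized, for each known or predicted mature miRNA in each library. Of the processing, the submitters' notes name the build Oar_v3.1 and the tool DESeq. Which aligner and miRNA caller were used, and how multiply matching reads were counted, is not given in the sources used here. All value columns were mapped to samples. Species prefixes were removed, which left 10430 names. For the 450 with several rows, the row with the most reads was used.

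For the breed comparison, low names were removed by filterByExpr, and edgeR 4.0.16 (R 4.3.3) was fitted with TMM factors, no covariates and its robust quasi-likelihood F test. The Benjamini-Hochberg threshold was 0.05 over 1274 names. Log2 fold changes are QHMM over STH, and standard errors are the absolute fold change over the root of F. The methods were tested on simulated data. Arm and member ratios are log2 ratios with 0.5 added to each count. The arm ratio of miR-34a was compared with an exact permutation test, and the planned tests of the other ratios are not given, since their 5p counts belong to the known contrast. These steps used Python 3.11.15, pandas 2.3.3, numpy 2.4.6 and scipy 1.17.1. Replicates of a breed differed by far more than sampling noise (chi-square per degree of freedom of at least 80.3), so none was counted as a duplicate.

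The members, lists and tests were chosen with earlier results of these data known. The text names all family members, the 5 known names most like miR-34a-5p, miR-449a-5p and the summed miR-34b-5p and miR-34c-5p (Pearson correlation of log2 CPM, prior count 2), and for each list the members past the threshold and the 2 most abundant. The lists were muscle fibres, epithelium, gonad and germ cells, neurons, red blood cells, p53-responsive miRNAs and HTR2C intron miRNAs. List members were matched to the most abundant name of the same number, with or without its letter and arm, that shared at least 17 nt, a rule set after the names were seen. Alternatives were other factors, other filters, DESeq2 1.42.0, a replicate block, other rows, known names only and leaving out each library. A sense row for miR-34a-3p was added after the data were seen.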

Additional observations from a re-analysis of the deposited data

Results flagged for a closer look

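Rows that the comparisons did not use held counts above the limit that a count of 0 allows, which is 3 counts. The reverse complement row of miR-34a-5p held 1608 counts over the 6 libraries, and the sense row of miR-34a-3p held 58. The second locus of miR-449a-5p held 140 counts, with 2, 1 and 0 in QHMM and 42, 42 and 53 in STH. An unnamed row at the miR-449b locus, cacgactgccctgccac, listed as the other arm of the predicted hairpin, held 5 counts. Groups of 3 libraries are too small for the test of single libraries that stand apart.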

How the results depend on the processing

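The count of all names that differed between the breeds, 28, was 64 with no filter on low counts, 49 with DESeq2, 6 with known names only, and 8 where each library needed at least 10 counts. It was 16 to 35 with each library left out, with 16 without QHMM replicate 3, 18 without STH replicate 2 and 16 without STH replicate 3. The stricter filter and the known names leave fewer names to test, and for the rest the cause was not tested. The median log2 fold change of all names was 0.031, and -0.34 with no filter. The count of family members past the threshold, 4, was 2 with at least 10 counts in every library (miR-34b-5p and miR-34c-5p, of 4 members left to test) and 3 to 4 with each library left out, miR-449a-3p being past it in 4 of these fits. With no filter it was 5 of 12, with miR-449a-3p added. Since miR-449a-3p had no count in any QHMM library, it could enter a fit only through STH, and nothing is read from its calls. miR-34b-5p ran from -2.39 to -2.15, miR-34c-5p from -2.60 to -2.19 and miR-449a-5p from -6.67 to -5.60 over the alternatives in which they were fitted. Since these differences were known beforehand, their ranges are a description. miR-34b-3p ran from -1.84 to -1.33. miR-34a-5p ran from 0.065 to 0.98 and miR-34a-3p from 0.27 to 0.98, none past it. With each library left out, the breed difference of the miR-34a arm ratio ran from -0.74 to 0.035 (the highest without STH replicate 2) and that of the ratio of miR-34b to miR-34c from -0.028 (without QHMM replicate 1) to 0.34. The replicate block gave 26 calls over all names and the same 4 members. For replicate numbers 1, 2 and 3, the deviations from the breed means had correlations of 0.064, 0.24 and 0.12 between the breeds. Each library was closest to its own number, which is a hint in the data, while the labels give the numbers no meaning, so that the libraries were taken as unpaired. Depth limits miR-34c-3p and the miR-449b and miR-449c names, with at most 17 counts in total each.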

Other observations

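The antisense rows of miR-34a were not alone in the table. Over all 11161 rows, 306 pairs of rows shared at least 17 nt with the reverse complement of each other, involving 392 rows. In 120 of these pairs the larger row had at least 100 counts, and in 30 of the 120 both totals lay within 2-fold of each other, as for miR-34a-5p. The median ratio of the smaller to the larger total over the 120 pairs was 0.0137. No cause was tested.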
